A study of Homo sapiens with 8 samples.

Results

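The 10 S100 genes described here are S100A2, S100A3, S100A4, S100A5, S100A6, S100A10, S100A11, S100A13, S100A14 and S100A16, each taken by its symbol from the 25369 named genes of a gene count table. They form part of the 21 S100 genes of that table, and all 10 passed the filter on low counts that left 17714 genes for testing. RNA was sequenced from UWB1.289, an ovarian carcinoma line without functional BRCA1 (BRCA1-null), and from its derivative transduced with wild-type BRCA1 (BRCA1+). Each line was kept for 24 h in DMSO, the vehicle (control), or in 0.5 uM entinostat, an inhibitor of class I histone deacetylases, with 2 libraries in each of the 4 groups. All cells shared the UWB1.289 background and its own mutated BRCA1, and BRCA1+ was represented by 1 derived line, so the effect of BRCA1 cannot be told apart from other differences between these lines. The labels do not say whether the BRCA1-null cells carried an empty vector, nor whether the libraries of a group came from separate cultures, so the p-values measure the spread between these libraries, which may be technical.

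S100 proteins are small calcium-binding proteins with a pair of EF-hand motifs, found only in vertebrates, that mostly work as dimers. On binding calcium many of them open a surface that takes up a partner, such as an annexin, non-muscle myosin or p53. Several are also released from cells and bind receptors such as RAGE and TLR4, and many of their genes lie together in the epidermal differentiation complex of 1q21, where S100 levels are known to vary widely between epithelial tumours.

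All 10 genes lay on the minus strand of chromosome 1 between 151955386 and 153606568 (hg19), a stretch of 1.65 Mb with 66 genes of the table. S100A10 and S100A11 stood apart at one end, S100A6, S100A5, S100A4, S100A3 and S100A2 followed each other without another gene between them, and S100A16, S100A14 and S100A13 formed the far end. S100A5 and S100A6 were 905 bases apart, S100A14 and S100A16 1217 bases, and S100A3 and S100A4 1526 bases.

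The promoters of 4 genes are shown, because S100A2 and S100A6 differed most between the lines, S100A14 rose with entinostat in both lines, and S100A3 held matches to 3 of the 4 motifs searched. Each runs from 250 bases before to 50 bases after the start given in the count table, on the minus strand of hg19 as read from the GRCh37 primary assembly. Capitals mark motif letters found in that stretch on either strand. S100A2 lies at chr1:153538257-153538556, S100A3 at chr1:153521685-153521984, S100A6 at chr1:153508668-153508967 and S100A14 at chr1:153588759-153589058.
S100A2: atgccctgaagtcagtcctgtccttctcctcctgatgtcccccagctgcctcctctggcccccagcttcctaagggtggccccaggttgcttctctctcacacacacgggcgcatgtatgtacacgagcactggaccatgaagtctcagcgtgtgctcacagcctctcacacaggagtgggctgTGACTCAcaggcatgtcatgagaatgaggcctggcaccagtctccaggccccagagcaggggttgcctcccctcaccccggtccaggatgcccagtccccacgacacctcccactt
S100A3: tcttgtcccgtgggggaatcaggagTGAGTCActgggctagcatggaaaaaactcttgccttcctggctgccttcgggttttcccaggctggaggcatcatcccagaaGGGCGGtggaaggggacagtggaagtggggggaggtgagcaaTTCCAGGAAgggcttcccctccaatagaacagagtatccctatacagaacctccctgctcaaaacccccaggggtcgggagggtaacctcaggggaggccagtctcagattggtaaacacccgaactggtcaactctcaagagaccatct
S100A6: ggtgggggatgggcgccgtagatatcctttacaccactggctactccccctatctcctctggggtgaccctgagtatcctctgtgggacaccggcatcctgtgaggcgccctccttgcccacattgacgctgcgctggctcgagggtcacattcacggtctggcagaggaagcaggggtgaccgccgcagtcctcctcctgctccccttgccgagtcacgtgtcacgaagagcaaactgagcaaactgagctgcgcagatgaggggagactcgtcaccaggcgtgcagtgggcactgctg
S100A14: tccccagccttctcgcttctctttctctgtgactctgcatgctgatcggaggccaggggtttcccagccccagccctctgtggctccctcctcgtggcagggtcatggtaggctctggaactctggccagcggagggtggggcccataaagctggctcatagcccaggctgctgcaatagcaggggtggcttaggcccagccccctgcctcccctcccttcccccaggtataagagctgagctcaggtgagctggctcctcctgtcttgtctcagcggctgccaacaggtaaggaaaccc

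The motifs searched were the TATA box (TATAAA), the GC box (GGGCGG), the AP-1 site (TGANTCA) and the GAS element of STAT factors (TTCNNNGAA), none of which overlapped another in these promoters. The AP-1 letters were found in S100A2, with the first base at position -66 from the start, and in S100A3 at position -225, and in 5.23% of the 17714 promoters of tested genes. GAS letters were found in S100A3 at position -100 and in S100A5 at position -138, against 6.43% of all promoters. TATA letters were found in S100A4 at position -31, against 7.95%. GC box letters were found in S100A3, S100A10, S100A11 and S100A13, against 60.0%. S100A6, S100A14 and S100A16 held none of the 4 motifs in this window. A match describes letters only. The promoters of the 10 genes held between 5 and 26 CpG dinucleotides, against a median of 22 over all tested genes, and those of S100A14 and S100A3 held 5 each. The start in the table lay 2732 bases from the nearest GENCODE start for S100A13 and 379 bases for S100A10, so the windows of these 2 genes may miss the promoter in use, while the starts of S100A2, S100A3, S100A4 and S100A5 were the same in both sources.

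Total counts per library ranged from 31900158 to 53549893, and the limit that a count of 0 allows, 3 counts, corresponded to 0.0552 to 0.0946 counts per 1e+06 of the scaled library size (CPM), covering counting error only. BRCA1 stood at 98.9 and 92.4 CPM in BRCA1+ control and at 20.97 and 22.4 CPM in BRCA1-null control, with a log2 difference of -2.14 (edgeR adjusted p = 5.46e-07), as labelled. The carcinoma markers PAX8, EPCAM, MUC16, KRT8 and KRT18 were present in all 8 libraries, whereas WT1 did not exceed 20 counts. Among markers of other cells, S100A8 and DCN were at 0 in all libraries, PDGFRB and CD3E did not exceed 4 counts, and the summed leukocyte markers reached 2.70 to 9.30 CPM. The 3 endothelial markers summed to between 8.76 and 15.4 CPM in BRCA1+ control, where CDH5 stood at 4.15 and 6.82 CPM. In BRCA1-null entinostat they summed to between 69.8 and 90.2 CPM, mostly CDH5 (62.6 and 84.1 CPM). The 4 fibroblast markers summed to between 12.9 and 17.8 CPM in BRCA1+ control and between 40.9 and 59.3 CPM in BRCA1-null entinostat. These sums moved with line and with entinostat, and their part in the S100 results was not tested.

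Levels were compared between genes as CPM per kilobase of the transcript length in the count table. S100A11 was highest in all 4 groups, at 626 ± 6.40 (SD, n = 2) CPM per kilobase in BRCA1+ control. The order below it differed between the lines. In BRCA1+ control S100A10 (462), S100A16 (386), S100A2 (303) and S100A6 (213) followed, whereas in BRCA1-null control S100A6 (496) came next, then S100A16 (448), S100A10 (309), S100A13 (89.6) and S100A2 (78.3), all in CPM per kilobase. The lowest genes were S100A4, at 18.3 to 28.9 CPM per kilobase over the group means, and S100A3 and S100A5, at 1.97 to 5.29. The libraries of neighbours in this order did not overlap, except for S100A5 and S100A3 in BRCA1-null control and in BRCA1-null entinostat and for S100A14 and S100A2 in BRCA1-null entinostat. The sum per kilobase over the 10 genes was close between the lines under each treatment, where their libraries overlapped. It was 2171 ± 87.3 CPM per kilobase in BRCA1+ control and 2150 ± 15.9 in BRCA1-null control (SD, n = 2). With entinostat it was 2282 ± 97.9 in BRCA1+ and 2344 ± 9.82 in BRCA1-null cells. The treated libraries overlapped the controls in BRCA1+ cells and lay above them in BRCA1-null cells (2337 and 2351 against 2161 and 2139). Not scaled by length, the sum in DMSO was 1964 and 1863 CPM in BRCA1+ and 1799 and 1800 CPM in BRCA1-null cells. On that scale the lines did not overlap in DMSO. With entinostat they did, at 2078 and 1962 CPM in BRCA1+ and 1948 and 1976 CPM in BRCA1-null cells.

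**Figure D1:**
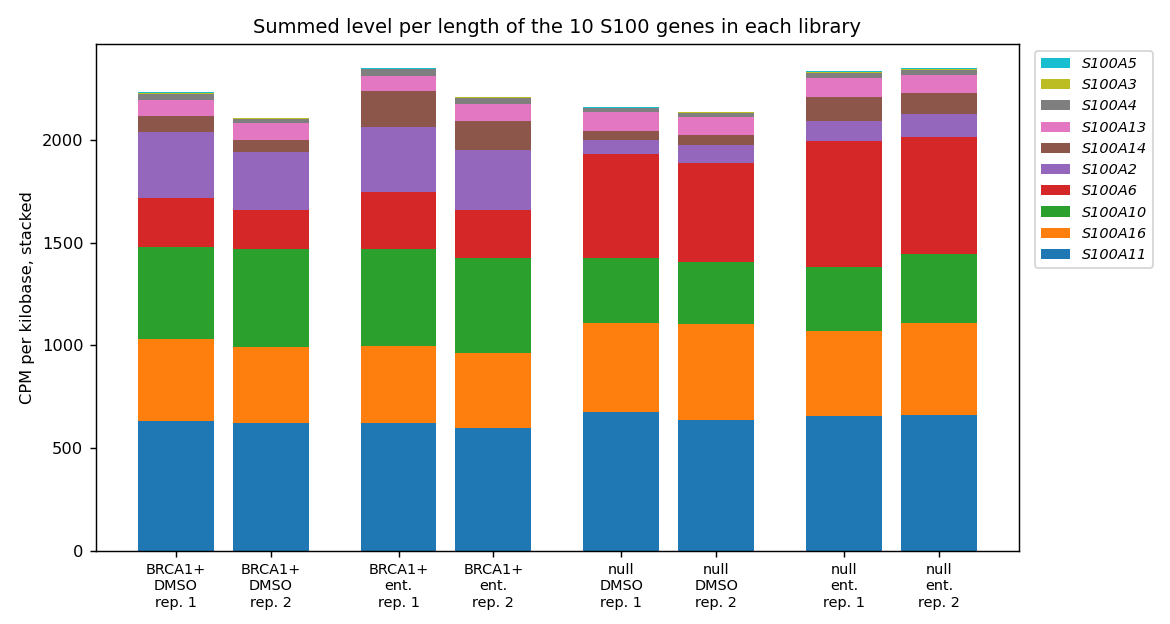
Level per length of the 10 S100 genes in each of the 8 libraries (vertical axis, CPM per kilobase, stacked; horizontal axis, group and replicate number). On this scale the totals are similar between the lines, and in BRCA1-null cells they are higher with entinostat. The S100A6 segment is wider and the S100A2 segment narrower in the BRCA1-null libraries. In the control means S100A6 is at 496 against 213 and S100A2 at 78.3 against 303 CPM per kilobase.

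The first comparison asked how the lines differed in DMSO. In BRCA1-null cells 2 of the 10 genes were higher, S100A6 and S100A16, and 5 were lower, S100A2, S100A3, S100A4, S100A10 and S100A14, at an adjusted p under 0.05 in edgeR's quasi-likelihood test. Of all 17714 tested genes 42.2% were called in this comparison, 21.1% higher and 21.04% lower. The median log2 difference of the 10 genes was -0.18, against 0.012 over all tested genes. In DMSO the libraries of the lines did not overlap for any of the 10 genes. That included S100A5, S100A11 and S100A13, which did not pass. How many of all tested genes had lines without overlap was not counted, so a lack of overlap describes these libraries only. With entinostat in both lines 4 genes were higher in BRCA1-null cells, S100A5, S100A6, S100A13 and S100A16, and 3 were lower, S100A2, S100A10 and S100A14, against 39.4% of all genes called, 20.5% higher and 18.9% lower. The median of the 10 genes was then 0.14, against 0.019 over all genes.

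**Figure D2:**
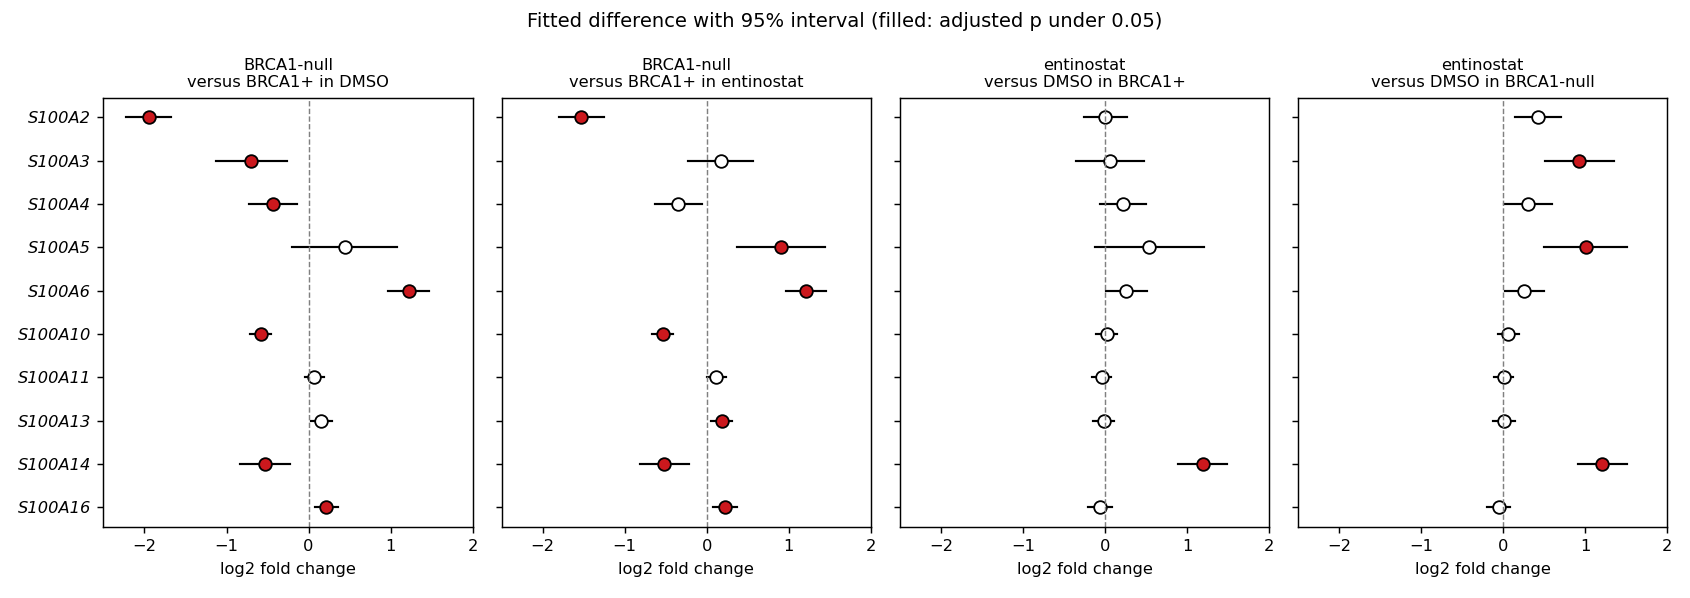
Fitted log2 fold change of each S100 gene (points, with 95% intervals as lines) in the 4 comparisons, filled where the adjusted p was under 0.05. S100A2 lies furthest to the left in both line comparisons (-1.95 in DMSO) and S100A6 furthest to the right (1.22 in DMSO), and S100A14 at 1.19 and 1.21 is filled in both entinostat comparisons.

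S100A2 encodes a mostly nuclear S100 protein of basal epithelial cells that binds p53. Its CPM in BRCA1+ cells were 311 and 273 without and 304 and 281 with entinostat, and those in BRCA1-null cells 65.6 and 85.0 without and 94.5 and 108 with it. Every BRCA1-null library lay below every BRCA1+ library. S100A2 was 3.87-fold lower in BRCA1-null cells in DMSO (log2 difference -1.95 ± 0.123 SE, edgeR adjusted p = 5.87e-06) and 2.89-fold lower in entinostat (-1.53 ± 0.122, edgeR adjusted p = 2.11e-05). The log2 change with entinostat was 0.43 ± 0.122 in BRCA1-null cells, which did not pass the test (edgeR adjusted p = 0.0566) but did without BRCA1-null control replicate 2 (0.63, edgeR adjusted p = 0.0308) in DESeq2 (0.42, adjusted p = 0.00491) and in the likelihood ratio test (0.43, adjusted p = 0.0127). In BRCA1+ cells it was 0.0054 ± 0.117, with a 95% interval from -0.26 to 0.27.

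S100A6, or calcyclin, is a widely expressed S100 protein that binds the calcyclin-binding protein CACYBP and several annexins. Its CPM in BRCA1+ cells were 162 and 129 without and 188 and 161 with entinostat, and those in BRCA1-null cells 346 and 332 without and 418 and 390 with it. The BRCA1-null libraries were all above the BRCA1+ libraries. S100A6 was 2.33-fold higher in BRCA1-null cells in DMSO (1.22 ± 0.109 SE, edgeR adjusted p = 3.54e-05) and 2.32-fold higher in entinostat (1.21 ± 0.109, edgeR adjusted p = 4.04e-05). The log2 change with entinostat was 0.26 in each line (SE 0.109 in BRCA1+, 0.106 in BRCA1-null), and neither passed the test (edgeR adjusted p = 0.146 and 0.157). Without BRCA1+ control replicate 1 the change in BRCA1+ cells was 0.44 and passed (edgeR adjusted p = 0.0362).

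S100A10 (p11) differs from other S100 proteins in that it holds its open form without calcium, and it forms a tetramer with annexin A2 at the plasma membrane. Its CPM in BRCA1+ cells were 473 and 503 without and 502 and 488 with entinostat, and those in BRCA1-null cells 332 and 319 without and 331 and 351 with it. The lines did not overlap, and within each line the treated and control libraries overlapped. S100A10 was 1.50-fold lower in BRCA1-null cells in DMSO (-0.58 ± 0.0552 SE, edgeR adjusted p = 4.97e-05) and 1.45-fold lower in entinostat (-0.54 ± 0.0553, edgeR adjusted p = 8.28e-05). The 95% intervals of its change with entinostat ran from -0.10 to 0.14 in BRCA1+ and from -0.060 to 0.19 in BRCA1-null cells on the log2 scale. ANXA2, the gene of its annexin partner, had log2 differences of -0.042 and 0.029 between the lines in DMSO and in entinostat (edgeR adjusted p = 0.562 and 0.709).

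S100A14, found mainly in epithelia, was the 1 member of the 10 called higher with entinostat in both lines. Its CPM in BRCA1+ cells were 83.1 and 63.5 without and 186 and 150 with entinostat, and those in BRCA1-null cells 50.5 and 50.7 without and 123 and 111 with it. Treated libraries lay above the control libraries of their line without overlap. S100A14 was the 1 member of 10 called with entinostat in BRCA1+ cells, where 14.1% of all genes were called, 8.13% higher and 5.995% lower. It rose 2.29-fold there (1.19 ± 0.133 SE, edgeR adjusted p = 0.00119) and 2.31-fold in BRCA1-null cells (1.21 ± 0.135, edgeR adjusted p = 0.00182). These changes differed by 0.017 between the lines on the log2 scale, with a 95% interval from -0.41 to 0.44. Between the lines S100A14 was 1.45-fold lower in BRCA1-null cells in DMSO (-0.53 ± 0.136, edgeR adjusted p = 0.0120) and 1.43-fold lower in entinostat (-0.52 ± 0.130, edgeR adjusted p = 0.0117). The call in DMSO was lost without BRCA1+ control replicate 1 (-0.33, edgeR adjusted p = 0.0777), without BRCA1-null control replicate 1 (-0.51, 0.0503) and without BRCA1-null control replicate 2 (-0.53, 0.0515). That in entinostat was lost without BRCA1+ entinostat replicate 1 (-0.37, edgeR adjusted p = 0.0831) and without BRCA1-null entinostat replicate 2 (-0.44, 0.0719).

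**Figure D3:**
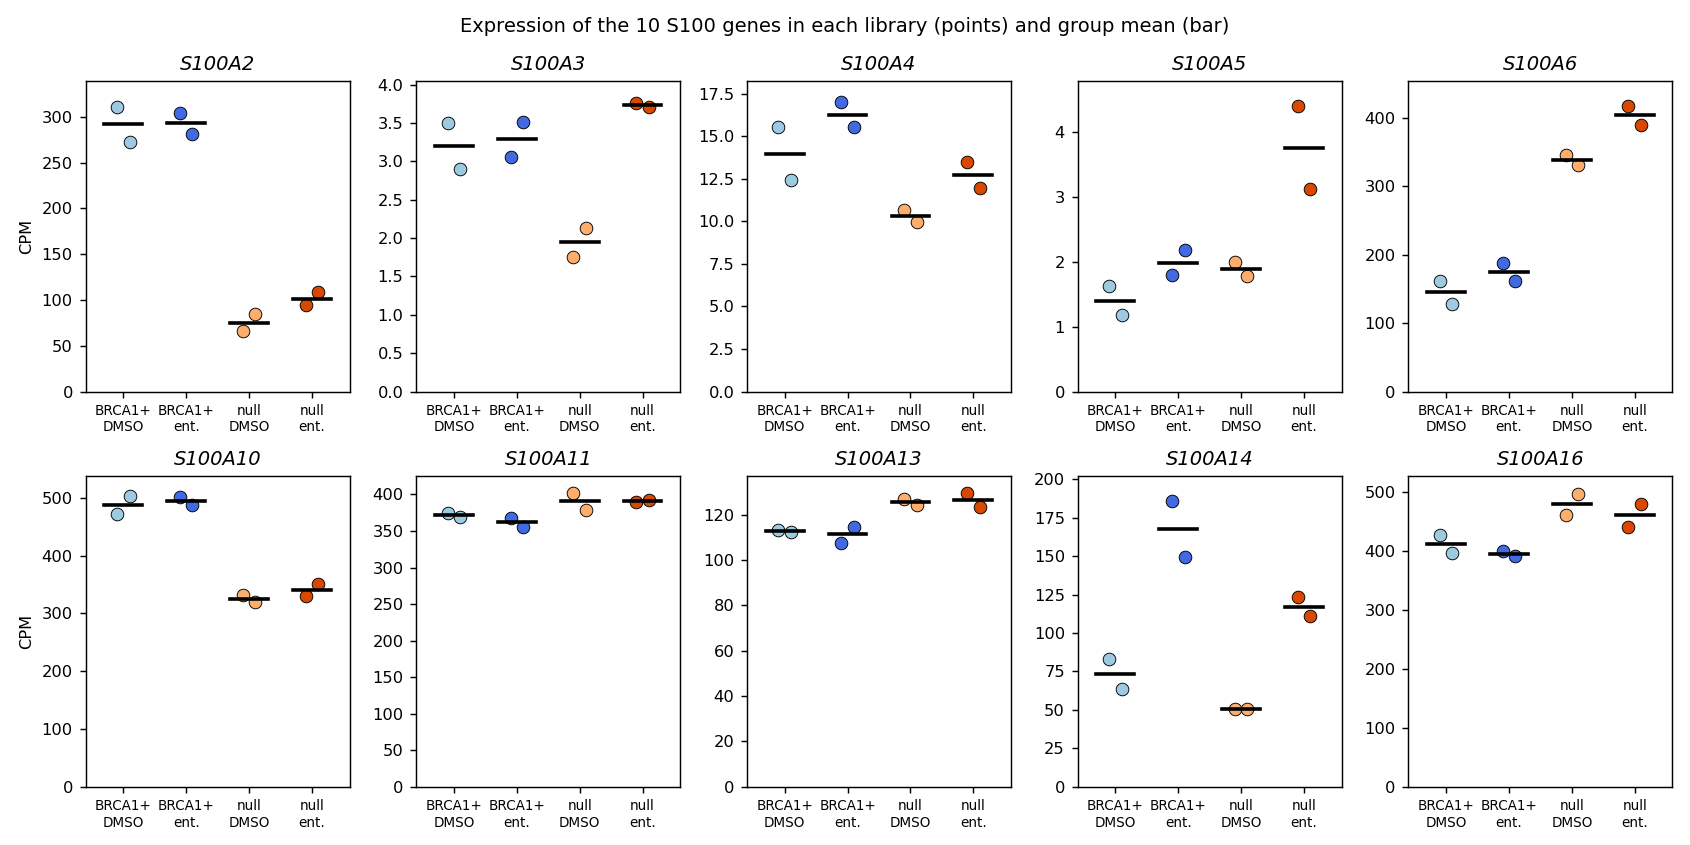
CPM (vertical axes, each from 0) of the 10 S100 genes in the libraries of the 4 groups (points; bars are group means; ent., entinostat; null, BRCA1-null). S100A2 separates the lines downwards (311 and 273 in BRCA1+ control, 65.6 and 85.0 in BRCA1-null control), S100A6 upwards, and S100A14 rises with entinostat in both lines.

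With entinostat in BRCA1-null cells 3 of the 10 genes rose, S100A3, S100A5 and S100A14, and 0 fell, against 10.8% of all genes called, 7.57% higher and 3.19% lower. The median log2 change of the 10 genes was 0.28, against 0.019 over all genes, and in BRCA1+ cells it was 0.041, against 0.00041. S100A3 encodes a cysteine-rich, zinc-binding S100 protein best known from hair. It was measured at 80 to 176 counts a library. Its CPM in BRCA1+ cells were 3.50 and 2.90 without and 3.06 and 3.51 with entinostat, and those in BRCA1-null cells 1.76 and 2.13 without and 3.75 and 3.71 with it. BRCA1-null control stood below the other groups, which lay close together. S100A3 was 1.62-fold lower in BRCA1-null cells in DMSO (-0.70 ± 0.193 SE, edgeR adjusted p = 0.0171) and rose 1.90-fold in them with entinostat (0.93 ± 0.185, edgeR adjusted p = 0.0165). In entinostat the lines differed by 0.17 ± 0.176 (edgeR adjusted p = 0.492). The difference in DMSO did not pass without BRCA1+ control replicate 1 (-0.56, edgeR adjusted p = 0.104) or without BRCA1-null control replicate 1 (-0.56, 0.0858). The rise with entinostat did not pass without any 1 of the 4 BRCA1-null libraries (0.78 to 1.09, edgeR adjusted p from 0.0530 to 0.0823), nor when only these 4 libraries entered the fit (0.91, 0.0578).

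S100A5, next to S100A6 on the chromosome and best known from olfactory neurons, was the lowest of the 10 genes in BRCA1+ cells, at 54 to 206 counts over all 8 libraries. Its CPM in BRCA1+ cells were 1.63 and 1.18 without and 1.80 and 2.18 with entinostat, and those in BRCA1-null cells 2.00 and 1.79 without and 4.39 and 3.11 with it. The BRCA1-null entinostat libraries were the 2 highest. S100A5 rose 2.01-fold with entinostat in BRCA1-null cells (1.00 ± 0.226 SE, edgeR adjusted p = 0.0256), and the lines differed 1.87-fold in entinostat (0.90 ± 0.236, edgeR adjusted p = 0.0138). Its change in BRCA1+ cells was 0.54 ± 0.293 (edgeR adjusted p = 0.264), and its difference between the lines in DMSO 0.44 ± 0.283 (edgeR adjusted p = 0.242). The rise did not pass without BRCA1-null control replicate 1 (1.06, edgeR adjusted p = 0.0624), without BRCA1-null control replicate 2 (0.92, 0.132), without BRCA1-null entinostat replicate 1 (0.72, 0.159) or with only the BRCA1-null libraries in the fit (0.98, 0.0774). The difference in entinostat did not pass without BRCA1+ entinostat replicate 1 (0.78, edgeR adjusted p = 0.0782), BRCA1+ entinostat replicate 2 (1.07, 0.0541) or BRCA1-null entinostat replicate 1 (0.62, 0.104).

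Whether entinostat acted differently in the lines was tested by the interaction of line and entinostat, which called 0 of the 10 genes, as it called 0.0% of all genes (827 of 17714 had an unadjusted p under 0.05 in edgeR). DESeq2 and edgeR's likelihood ratio test called 0 of the 10 as well, and 11 and 18 of all genes. S100A3 (0.87, 95% interval 0.28 to 1.46, unadjusted p = 0.00869 and adjusted p = 0.967 in edgeR) and S100A2 (0.42, 95% interval 0.038 to 0.80, unadjusted p = 0.0344 and adjusted p = 0.967) were the 2 members with an unadjusted p under 0.05. For S100A5 the difference was 0.46, with a 95% interval from -0.38 to 1.31. Each line's entinostat comparison shares its control libraries with the comparison of the lines in DMSO, so a low control in BRCA1-null cells, such as that of S100A3, enters both.

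S100A4, or metastasin, which binds non-muscle myosin heavy chain IIA (MYH9) and is studied for its part in cell motility, measured 15.5 and 12.4 CPM without and 17.0 and 15.5 CPM with entinostat in BRCA1+ cells, against 10.7 and 9.99 CPM without and 13.5 and 11.97 CPM with it in BRCA1-null cells. Its libraries were lower in BRCA1-null than in BRCA1+ cells under each treatment. The difference passed the test in DMSO (-0.43 ± 0.129 SE, edgeR adjusted p = 0.0235) and not in entinostat (-0.35 ± 0.127, edgeR adjusted p = 0.0560). The call in DMSO was lost without BRCA1+ control replicate 1 (-0.27, edgeR adjusted p = 0.154), BRCA1-null control replicate 1 (-0.46, 0.0549) or BRCA1-null control replicate 2 (-0.38, 0.116). In entinostat it passed without BRCA1+ control replicate 1 (-0.36, edgeR adjusted p = 0.0298) or replicate 2 (-0.35, 0.0338), with DESeq2 size factors (-0.36, 0.0479), in the likelihood ratio test (-0.35, 0.0449) and with only the entinostat libraries in the fit (-0.36, 0.0348).

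S100A16, a widely expressed member, measured 427 and 397 CPM without and 401 and 391 CPM with entinostat in BRCA1+ cells, against 462 and 497 CPM without and 441 and 480 CPM with it in BRCA1-null cells. The lines did not overlap, and the difference was 1.16-fold under both treatments (0.22 ± 0.0636 SE in DMSO, edgeR adjusted p = 0.0225, and 0.22 ± 0.0638 in entinostat, edgeR adjusted p = 0.0227). In DMSO it did not pass without BRCA1+ control replicate 2 (0.17, edgeR adjusted p = 0.141) or BRCA1-null control replicate 2 (0.16, 0.147). In entinostat it did not pass without BRCA1+ entinostat replicate 1 (0.22, edgeR adjusted p = 0.0854), BRCA1+ entinostat replicate 2 (0.20, 0.135) or BRCA1-null entinostat replicate 2 (0.16, 0.141).

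S100A11, a partner of annexin A1, measured 374 and 369 CPM without and 368 and 355 CPM with entinostat in BRCA1+ cells, against 402 and 379 CPM without and 390 and 393 CPM with it in BRCA1-null cells. Its BRCA1-null libraries lay above its BRCA1+ libraries under each treatment. The difference did not pass in DMSO or in entinostat (edgeR adjusted p = 0.291 and 0.105). Its 95% intervals on the log2 scale ran from -0.043 to 0.19 in DMSO and from 6.2e-05 to 0.23 in entinostat. The change with entinostat did not pass in BRCA1+ or BRCA1-null cells (edgeR adjusted p = 0.671 and 0.971), with 95% intervals between -0.15 and 0.12.

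S100A13, which takes part in the release of FGF1 and IL1A from cells, measured 113 and 112 CPM without and 108 and 115 CPM with entinostat in BRCA1+ cells, against 127 and 124 CPM without and 129 and 124 CPM with it in BRCA1-null cells. The difference between the lines was 0.16 ± 0.0574 SE in DMSO (edgeR adjusted p = 0.0540, and 0.0242 with upper-quartile factors) and 0.18 ± 0.0577 in entinostat, where it passed (edgeR adjusted p = 0.0315). The latter was lost in 8 of the 15 alternatives, among them DESeq2 (0.17, adjusted p = 0.0706) and the fits without BRCA1+ control replicate 1, BRCA1-null control replicate 1, or any 1 of the 4 entinostat libraries (edgeR adjusted p from 0.0503 to 0.231).

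Some of these values can hold reads of another gene, since the sources used here do not state whether counting used strand. S100A1 (153600873 to 153604513) and part of CHTOP lie on the plus strand within the span of S100A13 (153591276 to 153606568), so their reads cannot be told apart from those of S100A13 where exons overlap. S100A1 had 799 to 2040 counts a library and S100A13 3416 to 6755. In GENCODE, S100A4 also overlaps S100A3 on the same strand. S100A4 was the higher of these, at 486 to 720 counts against 80 to 176 for S100A3. Long noncoding genes of GENCODE overlap S100A6 and S100A11 on the opposite strand and S100A13 on its own strand. Their part in the counts was not tested.

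Among the 11 S100 genes of the table outside the 10, S100A8, S100A12, S100A7A, S100A7L2, S100B and S100Z had 0 counts in every library, S100A7 at most 1 and S100P at most 10. The other 3 were tested. S100A1, a calcium sensor known from heart muscle, measured 20.0 and 19.2 CPM without and 31.6 and 27.6 CPM with entinostat in BRCA1+ cells, against 33.1 and 29.6 CPM without and 43.5 and 37.9 CPM with it in BRCA1-null cells. It was higher in BRCA1-null cells (0.68 ± 0.105 SE in DMSO, edgeR adjusted p = 8.56e-04, and 0.47 ± 0.101 in entinostat, edgeR adjusted p = 0.00540) and rose with entinostat (0.59 ± 0.107 in BRCA1+, edgeR adjusted p = 0.00869, and 0.38 ± 0.0984 in BRCA1-null, edgeR adjusted p = 0.0412). S100G (calbindin-D9k), at 12 to 57 counts, was higher in BRCA1-null cells in entinostat (1.61 ± 0.492, edgeR adjusted p = 0.0276), and S100A9, the calprotectin subunit, at 5 to 24 counts, passed no test.

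**Figure D4:**
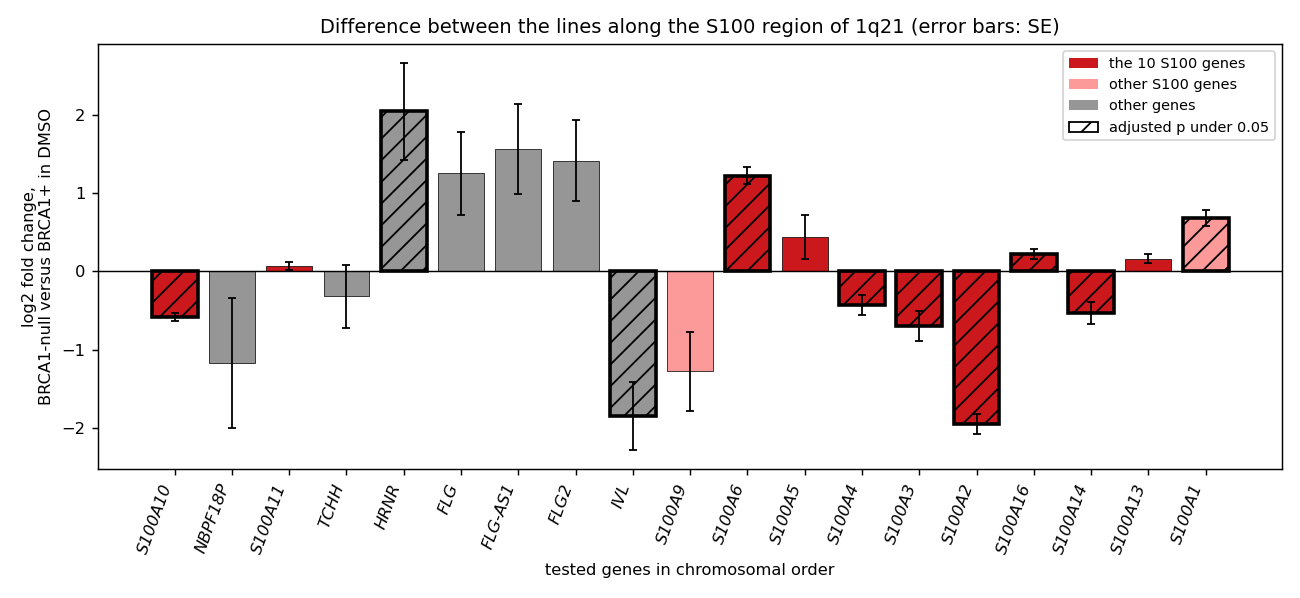
Log2 difference between BRCA1-null and BRCA1+ cells in DMSO (vertical axis; error bars are SE) for the 19 tested genes of the region, in chromosomal order along the horizontal axis; hatched bars had an adjusted p under 0.05. Higher and lower genes are mixed along the region, from S100A10 (-0.58) through S100A6 (1.22) and S100A2 (-1.95) to S100A1 (0.68).

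The differences between the lines did not run one way along 1q21. Between S100A6 (1.22) and S100A2 (-1.95) lay S100A5 (0.44, which did not pass), S100A4 (-0.43) and S100A3 (-0.70), and S100A16 (0.22) lay next to S100A14 (-0.53), all as log2 differences in DMSO. Of the 49 other genes within the region, most of them genes of skin such as the LCE and SPRR families, 7 passed the filter on low counts. In each comparison of the lines 1 of these 7 was called higher and 1 lower, and 0 were called with entinostat in either line (1 of 7 had an unadjusted p under 0.05 in each, in edgeR). The share called was 28.57% in both comparisons of the lines, against 42.2% and 39.4% of all genes. With entinostat 14.1% of all genes were called in BRCA1+ and 10.8% in BRCA1-null cells. An unadjusted p under 0.05 in edgeR was reached there by 5129 and 4856 of 17714 genes. The 2 called genes were measured at few counts, HRNR at 0 to 19 counts and IVL (involucrin) at 2 to 25, and are named after their values were seen.

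Annexins bind membranes in the presence of calcium and are the best studied S100 partners. Of the 10 annexin genes tested, 2 were higher and 1 lower in BRCA1-null cells in DMSO, 4 and 1 in entinostat, and entinostat raised 2 of them in BRCA1+ cells, 3 of them in BRCA1-null cells, and lowered 0. In all, 3 and 5 of the 10 were called between the lines, against 42.2% and 39.4% of all genes, and 2 and 3 of the 10 with entinostat, against 14.1% and 10.8%. ANXA1 stood at 331 ± 13.4 CPM in BRCA1+ control, 467 ± 14.2 in BRCA1+ entinostat, 539 ± 19.8 in BRCA1-null control and 790 ± 25.8 in BRCA1-null entinostat (SD, n = 2). It was therefore higher in BRCA1-null cells (0.70 in DMSO, edgeR adjusted p = 1.84e-05) and higher with entinostat (0.50 in BRCA1+ and 0.55 in BRCA1-null, edgeR adjusted p = 0.00115 and 0.00124). ANXA6 rose with entinostat by 1.38 (BRCA1+) and 1.28 (BRCA1-null) on the log2 scale (edgeR adjusted p = 0.00978 and 0.0268). In entinostat ANXA6 was lower in BRCA1-null than in BRCA1+ cells (-0.84, edgeR adjusted p = 0.0220). ANXA3 was higher in BRCA1-null cells (0.40 in DMSO, edgeR adjusted p = 7.71e-04).

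Of 17 genes for receptors and other partners of S100 proteins, 16 were tested, and AGER, the gene of the receptor RAGE, had 0 counts in every library. In BRCA1-null cells 4 were higher and 3 lower in DMSO and 5 and 2 in entinostat, and entinostat raised 5 in each line and lowered 0. The share called was 43.75% in both comparisons of the lines, near the 42.2% and 39.4% of all genes, and 31.25% with entinostat in either line, where 14.1% and 10.8% of all genes were called. IL1A, which is exported with S100A13, stood at 3.21 ± 0.149 CPM in BRCA1+ control, 10.4 ± 0.999 in BRCA1+ entinostat, 20.7 ± 3.76 in BRCA1-null control and 41.2 ± 2.90 in BRCA1-null entinostat (SD, n = 2), and was called in all 4 comparisons (2.68 between the lines in DMSO, edgeR adjusted p = 5.73e-06). PLAT and PLAUR, of the plasminogen activation system in which S100A10 takes part at the cell surface, were also called higher in all 4, by 1.09 and 0.91 between the lines in DMSO (edgeR adjusted p = 0.00672 and 1.53e-05) and by 1.51 and 0.63 with entinostat in BRCA1+ cells (edgeR adjusted p = 0.00587 and 0.00120). TLR4 passed no test. PLAU, of the same system as PLAT and PLAUR, passed none either. Its log2 differences between the lines were 0.33 in DMSO and 0.38 in entinostat (edgeR adjusted p = 0.260 and 0.196). With entinostat it changed by 0.42 in BRCA1+ and 0.48 in BRCA1-null cells (edgeR adjusted p = 0.240 and 0.190).

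For the 4 members whose group means spanned at least 1 log2 unit, the gene outside the S100 family with the most similar profile was found by Euclidean distance between mean-centred log2 CPM over the 8 libraries. It was GPR27 for S100A2 (distance 0.339), DNMBP for S100A6 (0.144), LEPREL2 for S100A14 (0.289) and CEP112 for S100A5 (0.445). All 4 lie on other chromosomes. DNMBP stood at 13.5 and 11.05 CPM in BRCA1+ control and 28.1 and 27.6 in BRCA1-null control, and GPR27 at 7.83 and 6.28 and at 1.43 and 1.64.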

How the data were processed

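The authors sequenced poly(A) RNA from 8 libraries, aligned them with TopHat 2 on hg19, counted reads per gene with NGSUtils and deposited the raw counts in a single table with gene positions and lengths. The values carry no normalisation, and the handling of strand and of reads with several positions is not given in the sources used here. Groups were taken from the sample titles. The software was R 4.3.3 and edgeR 4.0.16. The filter filterByExpr left 17714 of 25369 genes, library sizes were scaled by TMM, and quasi-likelihood tests were fitted to the 4 groups together with 4 residual degrees of freedom. P-values are two-sided and adjusted over all tested genes (Benjamini-Hochberg), and a gene was called at an adjusted p under 0.05. CPM are counts per 1e+06 of the scaled library size, and log2 CPM used a prior count of 2. DESeq2 1.42.0, the edgeR likelihood ratio test, other scalings, no filter, a replicate block and leaving out libraries were alternatives. The fit was tested on simulated data. The members and lists were chosen with earlier results of these data known. All 10 members were named in every comparison. From the other lists the text names up to 3 called genes per comparison with the largest change and a mean log2 CPM of at least 3. Other S100 genes are all named. Promoters were read from GRCh37, whose chromosome 1 has the length of hg19.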

Additional observations from a re-analysis of the deposited data

How the results depend on the processing

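The differences of S100A2, S100A6 and S100A10 between the lines and the rises of S100A14 with entinostat kept their direction and passed the test in all 15 alternatives. Of the 10 members, the number called between the lines in DMSO fell from 7 to 2 when an absolute log2 difference of at least 1 was also asked, and ranged from 4 to 7 when single libraries were left out. In entinostat these numbers were 2 and 3 to 8. With entinostat and without single libraries the number ranged from 1 to 2 in the BRCA1+ line and from 1 to 3 in the BRCA1-null line, and was 1 in BRCA1-null cells with only the groups compared. The number over all genes moved as well, from 7472 to between 5312 and 7387 without single libraries for the lines in DMSO, from 6975 to between 4527 and 6918 in entinostat, from 2503 to between 676 and 2413 with entinostat in BRCA1+ cells, and from 1906 to between 512 and 1597 in BRCA1-null cells (693 with only the groups compared). How many of all genes also reached an absolute log2 difference of at least 1 was not counted. The 2 members left at that limit therefore cannot be set against a share of all genes. With the replicate block 8 members were called between the lines in DMSO and 9 in entinostat. With entinostat it called 2 in the BRCA1+ line and 6 in the BRCA1-null line. Of all genes it called 8956, 8398, 4314 and 3640 in these comparisons. The members added by the block were S100A13 in DMSO (edgeR adjusted p = 0.0292), S100A4 and S100A11 in entinostat (0.00750 and 0.0478), with entinostat S100A6 in the BRCA1+ line (0.0161) and S100A2, S100A4 and S100A6 in the BRCA1-null line (0.0295, 0.0447 and 0.0209). The labels do not say what the replicate numbers share, so the numbers were not taken as pairs. Deviations of same-numbered libraries correlated by 0.0523 to 0.287 over genes, positive for every pair of groups. Whether the numbers mark a shared effect was not tested.

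Among the log2 changes followed through the alternatives, direction changed only for those near 0 that passed no test. The direction of the interaction was followed for S100A2, S100A3, S100A5 and S100A14 only. With upper-quartile factors the entinostat change in BRCA1+ cells was 0.0077 for S100A11 and 0.030 for S100A13, and the interaction of S100A14 was -0.024. In BRCA1-null cells the S100A11 change was -0.0036 with DESeq2 size factors, -0.0036 in DESeq2, -2.9e-05 with no filter and -0.017 with only the groups compared, and that of S100A13 was -0.011 with only the groups compared. Without single libraries the entinostat changes in BRCA1+ cells ranged from -0.086 to 0.10 for S100A2, from -0.076 to 0.20 for S100A3, from -0.023 to 0.066 for S100A10 and from -0.069 to 0.031 for S100A13. In BRCA1-null cells they ranged from -0.039 to 0.024 for S100A11, from -0.024 to 0.043 for S100A13 and from -0.13 to 0.0039 for S100A16, and the interaction of S100A14 ranged from -0.19 to 0.20. The cause of these changes was not tested. A library left out of a group of 2 leaves a single library, assumed to vary like the other groups. With 2 libraries a group, the calls of small differences such as those of S100A13 and S100A16 changed with single libraries, and S100A3 and S100A5 rested on 54 to 206 counts a library.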
